A study of Mus musculus with 36 samples.

Results

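The comparison set ribosome-protected fragments (RPFs) from the ribosome pellet of FMR1 KO mouse brain against RNA-seq of whole brain from the same strain. Its libraries were taken by their labels, as the preparation with 10 mM MgCl2 (the standard one), and held 6 of the 36 libraries of the series, 3 of pellet RPFs and 3 of RNA. Every library came from 10 pooled brains of mice 5 days old, so that the replicates are pools and not single animals, and the labels give no sex of a pool (the study used mice of both sexes). FMR1 KO mice carry a disrupted Fmr1 gene in every cell and make no FMRP. The pellet is what sediments through the sucrose gradient after polysomes have been collected above it, and the RPFs are the pieces of mRNA that ribosomes of the pellet shield from nuclease. A second preparation with 2.5 mM MgCl2 and weaker nuclease digestion (low nuclease) gave further FMR1 KO pellet and RNA libraries, which serve as alternatives. The WT counterpart, C57BL/6 mice of the same age prepared in the same way, held 6 further libraries and is used only where the genotypes are compared. The quantity described is the occupancy, the log2 ratio of a gene's share of pellet RPFs to its share of whole-brain RNA. Of 16614 genes in the count table, 16179 were tested.

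FMRP is an RNA-binding protein of neurons that associates with ribosomes and many mRNAs, and its loss causes fragile X syndrome in humans. Neurons move mRNAs along dendrites and axons in RNA granules, dense clusters that hold ribosomes halted during elongation, and such clusters sediment into the pellet. A ribosome covers a short stretch of the coding sequence, so footprints report coding sequence in use, while RNA-seq reports the whole transcript, untranslated regions included.

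Pellet libraries had total counts of 23127381 to 36305630, and RNA libraries of 122347383 to 147216378. Cdk8 alone took 46.0% to 63.4% of the pellet counts and at most 0.0338% of the RNA counts. It was left out with the 6 genes of chromosome Y, and the tested genes then held 12471591 to 15405641 counts in a pellet library. Over genes, log2 levels correlated at 0.918 to 0.954 between pellet libraries, at 0.989 to 0.996 between RNA libraries and at 0.788 to 0.833 between a pellet and an RNA library. The chromosome Y genes had 789 to 1241 counts in a pellet library and 14 to 26 in an RNA library, although the RNA libraries were deeper. Keeping these genes and Cdk8 in the fit gave 5143 genes higher and 5672 lower in the pellet, near the counts without them. Other differences between the pools were not tested. The mutated gene Fmr1 (ENSMUSG00000000838, GRCm38 chrX:68678541-68717963) stood at 11.1, 11.8 and 11.9 CPM (read counts scaled to a common total per library) in RNA and 6.60, 9.04 and 6.10 CPM in the pellet of FMR1 KO. Its occupancy was lower in FMR1 KO than in WT (log2 -1.85 ± 0.18 (SE), adjusted p = 0.00491). The 10 neuronal markers had a summed RNA level of 5524 to 5761 CPM, and 6 erythroid markers had 156 to 258 CPM. These sums cover unlike numbers of genes, and tissue origin is not read from them.

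Peaks of footprint coverage, as the authors called them per library, give positions at which footprints gathered in some of the genes. The 3 pellet libraries held 31883, 18652 and 25470 peaks. A midpoint within 6 bases in all of them was found for 1512 peaks, of which 1475 lay in coding sequence, 16 in a 5′ untranslated region and 20 in a 3′ untranslated region. For 9 gene classes the tallest such coding peak whose 29-base window lay inside 1 exon is printed 5′ to 3′ on the sense strand, with the codon nearest the midpoint in capitals and positions in GRCm38. The convention of the peak coordinates is not given, so that the codon and its number may be off by up to 2 bases.
Tubb2b, codon 387 of 446, chr13:34127635-34127663, minus strand: ggagcagttcactGCTatgttccggcgca
Dpysl2, codon 144 of 573, chr14:66834245-66834273, minus strand: ggacatcactgagTGGcacaagggcatcc
Kif5c, codon 263 of 957, chr2:49700560-49700588, plus strand: tttgtctgctcttGGAaatgtgatttctg
Hsp90aa1, codon 472 of 734, chr12:110693080-110693108, minus strand: cacatctgcttctGGGgacgagatggttt
Tars, codon 118 of 723, chr15:11393240-11393268, minus strand: tgacaacaccgttGTTgctaaggtgaaca
Ddx5, codon 245 of 616, chr11:106785198-106785226, minus strand: aagaacaacttacCTTgtccttgatgaag
Hnrnpa0, codon 292 of 306, chr13:58127425-58127453, minus strand: caacagtggaccgTACagaggcggctacg
Psmb5, codon 156 of 265, chr14:54616539-54616567, minus strand: catggggctgtctATGggcaccatgatct
Rps3, codon 204 of 244, chr7:99479384-99479412, minus strand: tcccaagaagcctCTGcctgatcatgtga

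Each of these windows matched 1 place in the genome. The peak heights, in units of coverage that are not scaled between libraries, were 2783, 1074 and 3021 for the β-tubulin Tubb2b and 2373, 1311 and 1573 for Dpysl2, a tubulin-binding protein of growing axons. They were 207, 115 and 179 for the helicase Ddx5, 71, 46 and 47 for the ribosomal protein Rps3 and 16, 10 and 12 for Tars, the threonyl-tRNA synthetase. A coding peak shared by the 3 libraries was present in 963 of the tested genes (5.95%), among them 38 of 80 ribosomal proteins, 9 of 18 tubulins, 9 of 28 microtubule-associated proteins, 2 of 20 tRNA synthetases and 0 of 46 voltage-gated channels. These peaks are the tallest in their class among those whose window was eligible, so that their genes were picked after the data had been seen. Since a peak needs many footprints in the pellet, these genes were chosen on the signal that enters their occupancy. Of the 963, 476 were higher in the pellet than in RNA and 304 were lower, with a median log2 occupancy of 0.30, and nothing is read from these counts.

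Across the tested genes, pellet RPFs and RNA differed widely. At an adjusted p of 0.05 (quasi-likelihood test of edgeR, p-values adjusted by Benjamini and Hochberg over all genes tested), 5141 genes were higher in the pellet (31.8% of those tested) and 5692 were lower (35.2%). The median log2 occupancy was -0.07, with quartiles of -1.07 and 0.84. Without overlap between the 3 pellet and the 3 RNA libraries, 33.3% of genes were higher in the pellet and 38.9% lower. The zero point is set by the normalization, and 47.5% of the calls were rises under TMM against 11.3% when libraries were scaled by their total alone, where the median of all genes moved by -1.10. Classes are therefore given relative to the median of all genes tested. Other than the highest, the lowest and the most abundant in RNA of each class, the 10 largest rises and falls and Fmr1, Tubb2b, Map1b and Camk2a, most genes named were picked after their values were seen. The labels give no independent origin for replicates beyond separate pools, and p-values measure the spread between these pools.

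**Figure D1:**
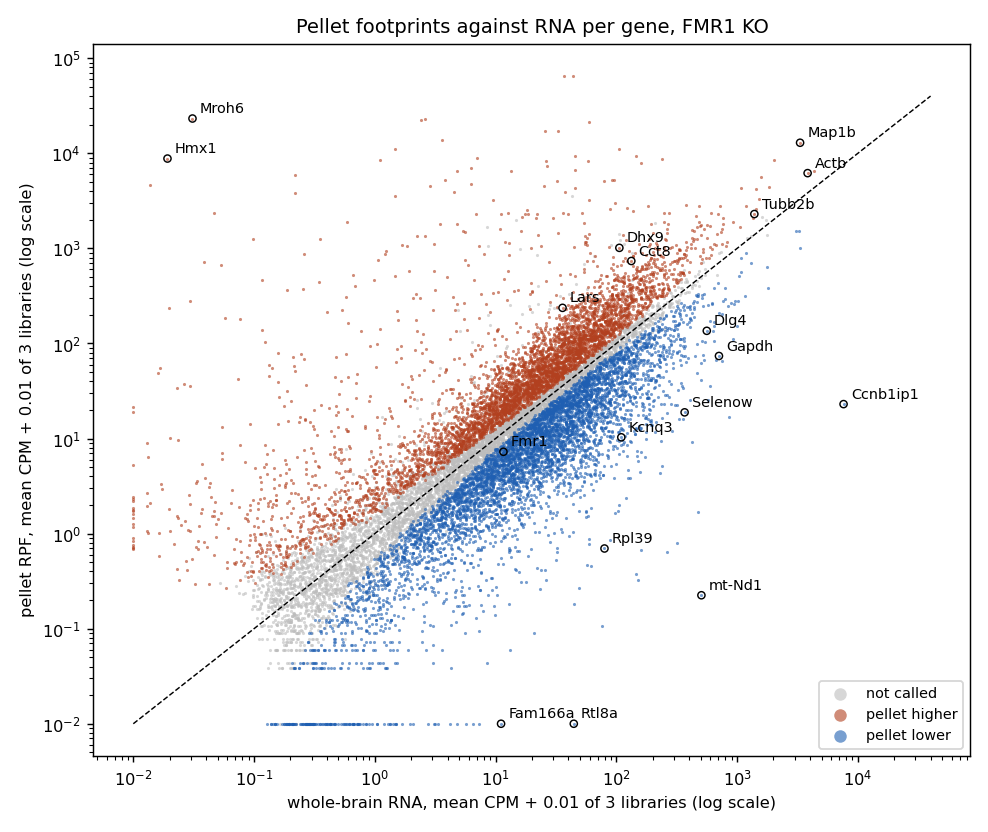
Mean CPM in the 3 pellet RPF libraries (vertical, log scale) against mean CPM in the 3 RNA libraries (horizontal, log scale) of FMR1 KO, 1 point per tested gene, with 0.01 added for display. Red points are the 5141 genes called higher in the pellet, blue points the 5692 called lower, gray points those not called, and the dashed line marks equal levels.

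The mRNAs of tRNA synthetases, RNA helicases and splicing factors stood high. All 20 cytosolic aminoacyl-tRNA synthetases, the enzymes that join amino acids to tRNAs, rose in the pellet, with a median occupancy 1.61 above that of all genes tested and 1.55 to 1.73 above it in the single pellet libraries. Lars, for leucine, had 267, 215 and 229 CPM in the pellet and 36.6, 34.5 and 36.5 CPM in RNA (log2 2.72 ± 0.12 (SE), adjusted p = 8.9e-06). Aars, for alanine and the most abundant in RNA, had 590.5, 519 and 630.1 and 151, 141 and 149 CPM (log2 1.98 ± 0.13 (SE), adjusted p = 2.4e-05). Even the lowest, Qars for glutamine, had pellet values of 40.7, 29.7 and 38.6 CPM above all of its RNA values of 24.4, 24.6 and 23.0 CPM (log2 0.60 ± 0.13 (SE), adjusted p = 0.00542), although it turned to -0.47 under library size alone. In that scaling 9 of the 20 rose and 0 fell.

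Helicases of the DEAD-box and DEAH-box type, which unwind RNA in splicing, ribosome assembly and translation, rose in 38 of 51 cases and fell in 2. Their median lay 1.18 above all genes, and 0.78 above with the pellets of the low nuclease preparation and 0.77 when scaled by length. Dhx9 had 1172, 896 and 970.4 CPM in the pellet and 101, 108 and 109 CPM in RNA (log2 3.26 ± 0.16 (SE), adjusted p = 1.1e-05), the highest of the class. Ddx5, whose peak is printed above, had 956, 749 and 893 and 351, 339.8 and 396 CPM (log2 1.26 ± 0.15 (SE), adjusted p = 3.6e-04), with 53.6% repeated coding words. The 2 that fell were Ddx19b (-1.54) and Ddx18 (-0.77), where 47.9% and 78.3% of the coding 30-base words also occur elsewhere in the genome. Splicing factors and hnRNPs rose in 47 of 67 cases and fell in 10, with a median 1.06 above all genes, 0.46 above it with the low nuclease pellets. Hnrnpk, the most abundant in RNA, had 428, 395 and 459 CPM in the pellet against 306, 326 and 328 (log2 0.42 ± 0.12 (SE), adjusted p = 0.019), but -0.67 under library size alone, and 69.7% of its coding words are repeated. The SR protein Srsf3, the lowest of the class, had 17.6, 22.9 and 18.5 against 83.3, 112 and 96.4 CPM (log2 -2.31 ± 0.15 (SE), adjusted p = 2.5e-05). Of its coding words 91.1% are repeated, and the log2 was 0.08 when scaled by length.

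Translation factors did not move as a block. Of 36 initiation factors 20 rose and 10 fell. Eif3a, the large scaffold of the factor that recruits the small subunit, had 933, 732 and 783 CPM in the pellet and 92.7, 93.7 and 92.7 CPM in RNA (log2 3.13 ± 0.15 (SE), adjusted p = 1.0e-05). Eif4g2, which initiates in a cap-independent way and whose own mRNA starts at a GUG codon, went the other way with 334, 340.3 and 274 against 1106, 1182 and 1208 CPM (log2 -1.88 ± 0.15 (SE), adjusted p = 5.3e-05). The pellet and RNA libraries of both genes were far apart, in opposite directions. Eif1, the start-codon fidelity factor, had 25.0, 24.2 and 14.7 against 172, 167 and 168 CPM (log2 -2.99 ± 0.21 (SE), adjusted p = 3.0e-05), with 99.0% of its coding words repeated in the genome. Among 11 elongation and termination factors 5 rose and 5 fell. The release factor Gspt1 (1.65) and Eef1a2 (1.51), the elongation factor of mature neurons, rose. Eef1a1 (-1.73) and Eef1g (-1.71) fell, with 88.9% and 92.4% of their coding words repeated.

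In the standard comparison, protein folding and degradation held the 2 classes with the highest medians, CCT subunits and giant ubiquitin ligases. With the low nuclease RNA and under length scaling, tRNA synthetases (1.56 and 1.48) stood above giant ligases (1.07 and 0.89). Without genes of repeated sequence, the HSP70, HSP90 and HSP60 chaperones (2.05) stood above CCT (1.89) and giant ligases (1.68). The 7 subunits tested of the CCT chaperonin, the ring that folds tubulin and actin, rose within a narrow range from 1.78 for Tcp1 to 2.47 for Cct8. Cct8 (ENSMUSG00000025613, chr16:87483326-87495873) had 779.6, 712 and 719 CPM in the pellet and 133, 133 and 133 CPM in RNA (log2 2.47 ± 0.12 (SE), adjusted p = 1.1e-05), and Tcp1 had 642, 574 and 607 against 171, 183 and 178 CPM (log2 1.78 ± 0.12 (SE), adjusted p = 2.6e-05). The class median was 2.05 above all genes, 1.88 to 2.23 in the single pellet libraries, and these 7 also rose under library size alone. Of 18 chaperones of the HSP70, HSP90 and HSP60 families 15 rose and 1 fell, with a median 1.31 above all genes. With the RNA of the low nuclease preparation the median was 0.72 above, and 8 rose and 2 fell. Hsph1, a nucleotide exchange factor of HSP70, had 622, 559.6 and 606 against 94.4, 101 and 84.0 CPM (log2 2.68 ± 0.13 (SE), adjusted p = 1.1e-05). Hsp90ab1, the constitutive HSP90, had 4559, 4150 and 4356 against 1055, 1159 and 1009 CPM (log2 2.02 ± 0.17 (SE), adjusted p = 6.0e-05), with 21.9% repeated coding words. The small co-chaperonin Hspe1 was the member that fell (log2 -1.22 ± 0.23 (SE), adjusted p = 0.00303), and 70.4% of its coding words were repeated.

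All 12 giant ubiquitin ligases, whose coding sequences have a median of 13746 bases, rose, with a median 1.77 above all genes. Hectd4, the most abundant in RNA, had 1341, 1052 and 1327 CPM in the pellet against 459.5, 412 and 442 CPM (adjusted p = 1.9e-04). Ubr4, a ligase of the N-degron pathway, had 2470, 3082 and 1578 against 258, 228 and 260.4 CPM (log2 3.25 ± 0.28 (SE), adjusted p = 7.0e-05), and Huwe1, the lowest, had 814, 582 and 713 against 312, 297 and 339 CPM (log2 1.15 ± 0.17 (SE), adjusted p = 7.6e-04). No pellet library of these 3 genes reached down to an RNA library. The class median fell to 0.89 above all genes when footprints were scaled by coding length and RNA by exonic length, and to 1.07 and 1.04 with the RNA or the pellets of the low nuclease preparation. Of 38 proteasome subunits 26 rose and 6 fell, with a median 0.89 above all genes. Psmd4, the ubiquitin receptor of the regulatory particle, had 669.9, 788 and 482 against 69.8, 70.7 and 68.3 CPM (log2 3.22 ± 0.21 (SE), adjusted p = 2.2e-05). Psma3, a core subunit with 75.8% repeated coding words, had 21.4, 26.96 and 19.9 against 84.8, 98.4 and 86.6 CPM (log2 -1.99 ± 0.14 (SE), adjusted p = 2.8e-05).

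The cytoskeleton of microtubules and their motors was also high. Tubulins rose in 12 of 18 cases and fell in 3, with a median 1.22 above all genes, but only 0.37 above it when scaled by length. Tubb2b (ENSMUSG00000045136, chr13:34126748-34130466), a β-tubulin of young neurons, had 2533, 1961 and 2396 CPM in the pellet and 1582, 1108 and 1476 CPM in RNA (log2 0.73 ± 0.21 (SE), adjusted p = 0.0176), a difference that turned to -0.35 under library size alone and to -0.11 when scaled by length. Tubb3, the β-tubulin that marks neurons, had 4407, 3845 and 4465 against 1628, 1082 and 1560 CPM (log2 1.57 ± 0.22 (SE), adjusted p = 6.7e-04). The 3 that fell were Tuba1a (-1.01), Tuba1b (-1.93) and the γ-tubulin Tubg2 (-1.53). Tuba1a and Tuba1b share most of their sequence with other tubulins, with 91.2% and 95.6% of their coding words at more than 1 place, so their reads may not be told apart from those of their relatives, which was not tested. Among the 7 tubulins with at most 10% repeated words 6 rose and 0 fell. Tuba3a, a testis α-tubulin with 50.9% repeated coding words, had 4.34, 6.18 and 8.84 CPM in the pellet and 2 counts over the RNA libraries.

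Microtubule-associated proteins rose in 20 of 28 cases and fell in 2, with a median 0.90 above all genes, 0.43 with the low nuclease pellets. Map1b (ENSMUSG00000052727, chr13:99421446-99516540), the large protein of growing axons and a known FMRP target, had 15358, 9602 and 13789 CPM in the pellet and 3634, 2845 and 3487 CPM in RNA (log2 1.96 ± 0.26 (SE), adjusted p = 5.4e-04). Its pellet level was 12916 ± 2975 CPM against 3322 ± 419.8 CPM in RNA (SD, n = 3), the most abundant of its class in both. Dpysl2 had 5961, 4743 and 6108 against 1677, 1435 and 1622 CPM (log2 1.83 ± 0.20 (SE), adjusted p = 1.9e-04). Stmn1, a tubulin-sequestering protein with 85.4% repeated coding words, fell (log2 -1.76 ± 0.18 (SE), adjusted p = 1.4e-04), as did Camsap1 (-0.55). The minus-end binder Camsap3 had the highest fitted value of the class, yet its pellet values of 182, 14157 and 1064 CPM were led by replicate 2, without which the log2 was 2.96.

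Kinesins, dyneins and dynactins rose in 36 of 49 cases and fell in 6, with a median 1.09 above all genes, 0.97 to 1.23 in the single pellet libraries and 0.57 with the low nuclease pellets. Kif5c, a motor of neuronal transport granules, had 735, 691 and 808 CPM in the pellet against 313, 367 and 300 CPM in RNA (adjusted p = 3.6e-04), and turned to -0.14 with the RNA of the low nuclease preparation. Kif21b, the most abundant in RNA, was lower in the pellet, with 424, 415 and 471 against 711, 709 and 656 CPM (log2 -0.66 ± 0.13 (SE), adjusted p = 0.00335). Kif13a, the highest, had 3477, 13046 and 3478 CPM in the pellet against 45.5, 45.4 and 45.5 CPM in RNA (log2 7.20 ± 0.70 (SE), adjusted p = 1.2e-04), the highest pellet level among the motors, with a log2 of 6.25 without pellet replicate 2. Spectrins, ankyrins and spectraplakins, giant proteins of the membrane skeleton, rose in 4 of 11 cases (Sptan1 at 1.71, Sptbn1 at 0.74, Ank2 at 0.69 and Plec at 7.70) and fell in 1 (Sptb at -0.90). The share that rose, 36.4%, was near the 31.8% of all genes. Sptbn1 turned to -0.34, -0.42 and -0.19 under library size alone, with the low nuclease RNA and with the low nuclease pellets, and Ank2 to -0.38 and -0.94 under the first 2 of these. The class median of 0.25 above all genes turned to -0.56 under length scaling and to -1.05 with the RNA of the low nuclease preparation, where 1 rose and 7 fell. Proteins of actin and its turnover were divided, with 11 of 25 higher and 10 lower (44% and 40%, against 31.8% and 35.2% of all genes). Their median of -0.03 from all genes went to 1.03 with the RNA of the low nuclease preparation and to 0.81 under length scaling. Actb, with 42.1% repeated coding words, had 6119, 5634 and 6810 against 3767, 3948 and 3791 CPM (log2 0.69 ± 0.18 (SE), adjusted p = 0.0129), and -0.39 under library size alone. The small actin-sequestering Tmsb10 had 26.4, 30.6 and 18.4 against 575, 637 and 509 CPM (log2 -4.51 ± 0.24 (SE), adjusted p = 1.2e-05), with 100% of its coding words repeated.

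**Figure D2:**
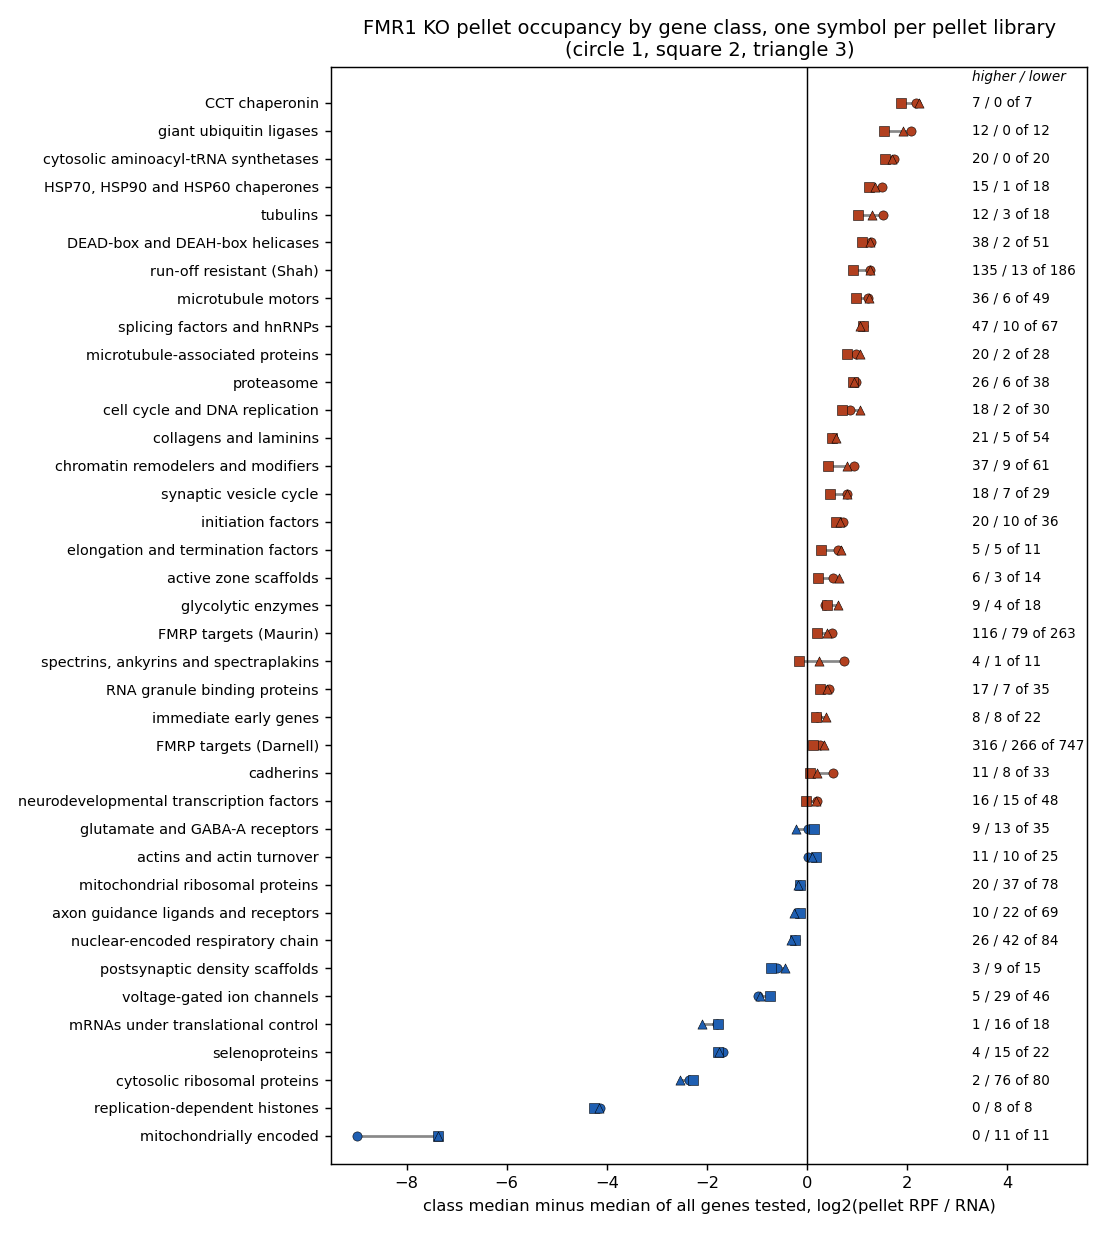
Median log2 occupancy of each gene class minus the median of all genes tested, 1 symbol for each FMR1 KO pellet library against the mean RNA level. Numbers at the right give members higher and lower of those tested. CCT subunits, giant ligases and tRNA synthetases stand above 1.5 in every library, and ribosomal proteins, histones and mitochondrially encoded genes stand below -2.

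Chromatin remodelers and modifiers rose in 37 of 61 cases and fell in 9, with a median 0.65 above all genes, 0.06 under length scaling and 0.19 with the RNA of the low nuclease preparation, where 11 rose and 12 fell. Their log2 ran from 2.75 for Atrx, a remodeler of heterochromatin, to -2.03 for Setd3. Chd3, the most abundant in RNA, had 371, 319 and 309 against 534, 555.3 and 506 CPM (log2 -0.68 ± 0.13 (SE), adjusted p = 0.00333). Cell cycle and replication genes rose in 18 of 30 cases and fell in 2, with a median 0.82 above all genes, 0.37 under length scaling and 0.14 with the low nuclease pellets. The highest was Rrm1, the large subunit of ribonucleotide reductase, at 198, 169 and 199 against 33.2, 39.5 and 38.5 CPM (log2 2.35 ± 0.12 (SE), adjusted p = 1.2e-05). Cyclin B1 (Ccnb1, -1.67, with 89.1% repeated coding words) and Birc5 (-1.45) were the members that fell. Neurodevelopmental transcription factors, with 16 of 48 higher and 15 lower, had shares of 33.3% and 31.3%, near those of all genes. The same held for immediate early genes, with 8 of 22 higher, among them Fos (0.78), Arc (0.84) and Nr4a2 (1.41), and 8 lower, among them Jund (-3.02) and Npas4 (-0.53). Both shares were 36.4%, against 31.8% higher and 35.2% lower of all genes. Fos and Arc turned to -0.32 and -0.24 under library size alone, and Npas4 to 0.05 with the low nuclease pellets.

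At the other end stood mRNAs with low occupancy. Of 80 cytosolic ribosomal protein genes, which carry a pyrimidine tract at the mRNA's 5′ end that places them under growth control, 76 fell and 2 rose. Their median was 2.39 below that of all genes, with differences of -2.28 to -2.53 in the single pellet libraries and -1.06 with the RNA of the low nuclease preparation. Rpsa, the most abundant in RNA, had 65.0, 60.1 and 71.7 CPM in the pellet against 721, 827 and 711 CPM in RNA (log2 -3.52 ± 0.15 (SE), adjusted p = 8.7e-06). Rpl39 had 0.695, 0.452 and 0.914 against 79.4, 89.5 and 70.4 CPM (log2 -6.81 ± 0.21 (SE), adjusted p = 5.5e-06), the lowest of the class. Rps3 stood closer to its RNA, with 162, 175 and 145 against 232, 244 and 239 CPM (log2 -0.57 ± 0.11 (SE), adjusted p = 0.00354), and turned to 0.43 when scaled by length. The 2 that rose were Rpl22, where 55.5% of the coding words are repeated, and Rpl3l. Rpl22 had 2642, 299 and 1238 CPM in the pellet against 106, 122 and 109.9 CPM in RNA (log2 3.63 ± 0.73 (SE), adjusted p = 0.00388), and was lower with the low nuclease pellets (-1.88, adjusted p = 8.6e-04 by edgeR). Rpl3l, the muscle paralog of Rpl3, had 84.1, 64.9 and 25.5 CPM against 0.17, 0.271 and 0.171 CPM. Ribosomal protein genes have many processed pseudogenes, and 78 of the 80 had more than 10% of their coding words at more than 1 genome place. The median share was 94.4%, and of the 2 genes with at most 10%, 1 rose and 1 fell. The median log2 of the class was -2.46, and that of all genes over 90% repeated (at 10 CPM or more in RNA) was -2.45. The part of shared sequence in the class's value was not tested beyond the split by repeated sequence given further on.

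Selenoproteins, whose translation reads a UGA codon as selenocysteine, fell in 15 of 22 cases and rose in 4. Only 3 of them had more than 10% repeated coding words, and among the other 19, 12 fell and 4 rose. Selenow, the most abundant in RNA, had 18.4, 19.7 and 18.4 CPM in the pellet against 358, 442 and 302 CPM in RNA (log2 -4.29 ± 0.18 (SE), adjusted p = 8.7e-06). The glutathione peroxidase Gpx4, one of the 3 with repeated sequence (63.0% of its coding words), had 7.55, 9.49 and 8.13 against 95.3, 109 and 87.7 CPM (log2 -3.54 ± 0.14 (SE), adjusted p = 8.0e-06). The members that rose were Txnrd2 (2.15) and Txnrd3 (1.47), thioredoxin reductases, the deiodinase Dio3 (1.38) and Selenoo (0.58). Dio3 turned to -0.40 with the low nuclease RNA, and Selenoo to -0.50 under library size alone and -0.13 under length scaling. The class median was 1.95 below all genes, with -1.20 for RNA of the low nuclease preparation and -1.26 when scaled by length.

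mRNAs known for control of their translation, by upstream reading frames, iron, polyamines or stress, fell in 16 of 18 cases. Amd1, an enzyme of polyamine synthesis with a regulatory upstream frame, had 0.521, 0.753 and 0.61 CPM in the pellet against 31.3, 33.3 and 31.7 CPM in RNA (log2 -5.71 ± 0.15 (SE), adjusted p = 4.2e-06). Atf4, the stress transcription factor whose upstream frames hold back its translation, had 11.5, 12.9 and 14.1 against 78.2, 80.98 and 80.5 CPM (log2 -2.64 ± 0.10 (SE), adjusted p = 8.0e-06). The ferritin heavy chain Fth1, controlled by an iron-responsive element, had 93.1, 133 and 86.3 against 434, 849 and 340.2 CPM (log2 -2.38 ± 0.38 (SE), adjusted p = 0.00126), with 19.5% repeated coding words. The pellet libraries lay below the RNA libraries for these 3 genes. Calr, the chaperone calreticulin, was the member that rose (log2 1.44 ± 0.15 (SE), adjusted p = 1.5e-04), and stood at -2.17 with the RNA of the low nuclease preparation. Of the 10 members with at most 10% repeated words 8 fell and 1 rose, with a median 0.98 below that of all genes with so few. The class as a whole stood 1.89 below all genes. The 7 members with more than 10% all fell, and no share of repeated words was obtained for Amd1.

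The 11 tested genes encoded by mitochondrial DNA, which are translated by mitochondrial and not by cytosolic ribosomes, all fell. mt-Nd1 (ENSMUSG00000064341) had 288, 892 and 339 CPM in RNA and 0.0868, 0.151 and 0.406 CPM in the pellet (log2 -11.19 ± 0.80 (SE), adjusted p = 3.1e-05) and RNA replicate 2 stood above the other RNA libraries. mt-Nd5, the highest of the class, had 89.2, 308 and 85.6 CPM in RNA and 0.521, 0.753 and 0.711 CPM in the pellet (log2 -7.95 ± 0.74 (SE), adjusted p = 9.7e-05). The 8 replication-dependent histone genes in the table fell as well. Hist1h4m had 13.2, 23.3 and 11.9 CPM in RNA and 0.955, 0.904 and 1.93 CPM in the pellet (log2 -3.65 ± 0.41 (SE), adjusted p = 2.2e-04). For 4 of the 8 no count was found in the pellet, and with those at the bound that 3 counts over the group allow, the class median was -2.53. All 8 had more than 10% repeated coding words, and with the RNA of the low nuclease preparation 0 of them was called.

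Hemoglobin and other erythroid genes fell in 6 of 6 cases, with a summed level of 156 to 258 CPM in RNA and 7.29 to 14.3 CPM in the pellet. Hbb-bs had 109.5, 124 and 81.2 CPM in RNA and 0.782, 1.21 and 3.96 CPM in the pellet (log2 -5.71 ± 0.55 (SE), adjusted p = 1.1e-04), and Alas2, the erythroid enzyme of heme synthesis, 9.10, 11.3 and 6.69 and 2.258, 1.66 and 2.95 CPM (log2 -1.96 ± 0.29 (SE), adjusted p = 8.3e-04). Of the 6 genes 4 had more than 10% repeated coding words, with 80.8% for Hbb-bs, and the other 2 also fell, with a median 2.58 below that of genes without such repeats. For the RNA level of any marker in bulk tissue, fewer cells of a type and less RNA per cell cannot be told apart, and the occupancy is a ratio to that level. Markers of astrocytes and radial glia rose in 6 of 9 cases and fell in 0, as for Aldh1l1 with 339, 412 and 386 against 81.6, 85.7 and 85.5 CPM (log2 2.17 ± 0.12 (SE), adjusted p = 1.4e-05). With the RNA of the low nuclease preparation 4 of these markers rose and 4 fell. Neuronal markers rose in 7 of 10 cases, with Nefm at 1.64 and Tubb3 at 1.57, and fell in 2 (Rbfox3 at -0.81 and Syt1 at -0.34). Of these 10, 3 rose and 2 fell with the low nuclease RNA. Of 10 oligodendrocyte lineage markers 2 rose and 3 fell (Mog at -4.61, Olig1 at -1.87 and Mbp at -1.42), shares of 20% and 30%. With the low nuclease RNA 1 of them rose and 5 fell. Under length scaling Syt1 and Mbp turned to 0.76 and 0.45. Of 8 microglia markers 2 rose and 1 fell (25% and 12.5%), and of 9 endothelial and mural markers 2 rose and 1 fell (22.2% and 11.1%). Of 6 choroid plexus markers 2 rose and 1 fell (33.3% and 16.7%), and of 3 hepatocyte markers 0 rose and 1 fell. Of all genes 31.8% rose and 35.2% fell.

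**Figure D3:**
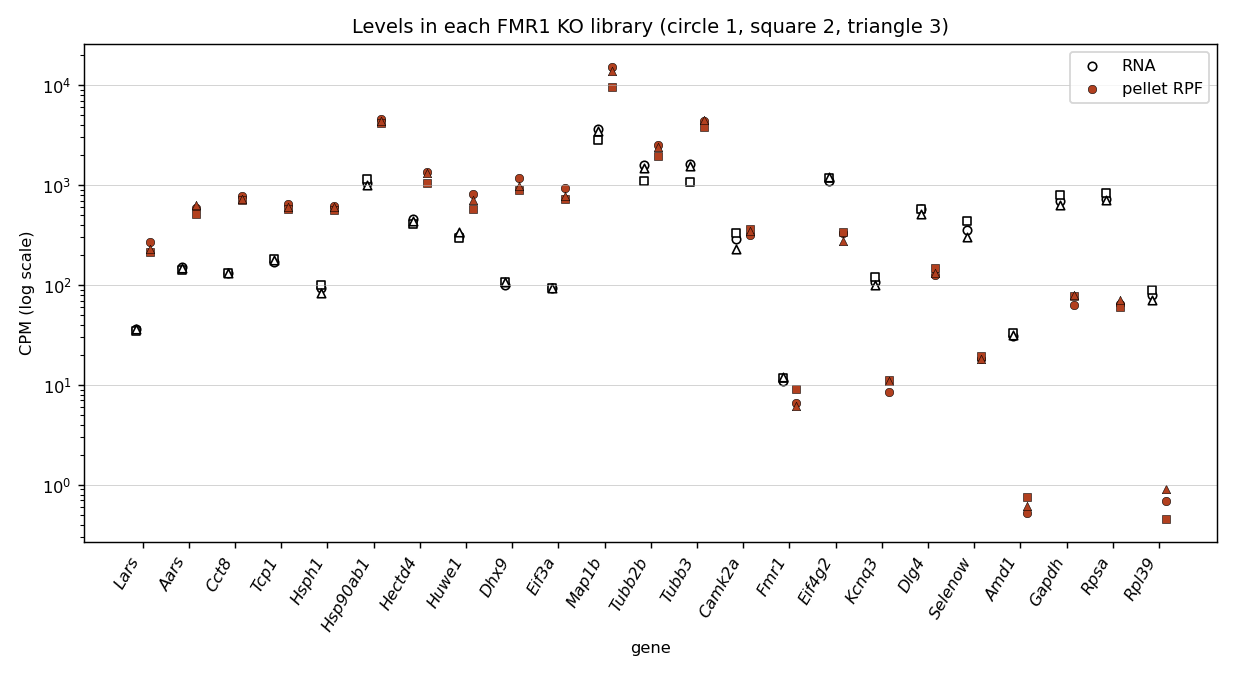
CPM on a log scale in each of the 3 RNA libraries (open symbols) and each of the 3 pellet RPF libraries (filled symbols) of FMR1 KO for genes named in the text. From Lars to Tubb3 every pellet value lies above the RNA values, and from Fmr1 to Rpl39 every pellet value lies below them.

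Genes of the synapse were not uniform. Voltage-gated sodium, calcium and potassium channels fell in 29 of 46 cases and rose in 5. The potassium channel Kcnq3, the most abundant in RNA, had 8.60, 11.3 and 10.97 CPM in the pellet against 108, 121 and 101 CPM in RNA (log2 -3.42 ± 0.14 (SE), adjusted p = 8.7e-06). The 5 that rose were Scn4a (15.95), a channel of skeletal muscle, and Cacna1d (4.59), Cacna1e (3.27), Scn7a (1.80) and Cacna1b (1.25). Cacna1d overlaps Dcp1a, whose pellet values of 213, 568 and 285 CPM are close to the 249.7, 569.5 and 278 CPM of Cacna1d, so that their reads may not be told apart. Scn4a had 1079, 5985 and 0.406 CPM in the 3 pellet libraries, with nearly none in the third. Cacna1b lay below its 3 RNA libraries (29.1, 24.4 and 26.1 CPM) in 1 pellet library and above them in the other two, and stood at -1.58 with the low nuclease RNA. Cacna1e stood at 0.34 without pellet replicate 2. The class median was 0.82 below all genes, -2.76 from them with the RNA of the low nuclease preparation, and 0.21 above them with its pellets, so that its direction depended on the preparation. Scaffolds of the postsynaptic density fell in 9 of 15 cases and rose in 3. Dlg4, which encodes PSD-95, had 127, 148 and 133 against 583, 584 and 515 CPM (log2 -2.05 ± 0.13 (SE), adjusted p = 2.2e-05), and Homer2 had 5.91, 11.4 and 6.20 against 91.4, 116 and 94.7 CPM (log2 -3.70 ± 0.28 (SE), adjusted p = 3.7e-05). Dlg3, a relative of Dlg4, rose (log2 1.21 ± 0.12 (SE), adjusted p = 1.6e-04), as did Dlgap2 (0.49) and Dlg1 (0.42). Dlgap2 turned to -0.63 under library size alone, -1.01 with the low nuclease RNA and -0.18 under length scaling, and Dlg1 to -0.68 under library size alone. The class median lay 0.67 below all genes and 0.14 below them with the low nuclease pellets.

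Receptors for glutamate and GABA rose in 9 of 35 cases and fell in 13 (25.7% and 37.1%, against 31.8% and 35.2% of all genes). Their median was -0.01 from all genes, -1.97 with the RNA of the low nuclease preparation, where 0 rose and 28 fell, and 0.88 with its pellets. Grin1 (1.29), the obligatory NMDA receptor subunit, and Gria2 (0.75), an AMPA receptor subunit, rose (but stood at -2.32 and -2.05 with the RNA of the low nuclease preparation), while Grin2b fell with 57.5, 42.3 and 49.9 against 123.3, 119 and 134 CPM (log2 -1.33 ± 0.13 (SE), adjusted p = 1.3e-04), and turned to 0.52 with the low nuclease pellets. Synaptic vesicle genes rose in 18 of 29 cases and fell in 7. Nsf, the ATPase that takes apart SNARE complexes, had 830.4, 831 and 859.9 against 234, 262 and 214 CPM (log2 1.83 ± 0.14 (SE), adjusted p = 3.9e-05), and the small SNARE Vamp2 had 249, 348 and 283 against 732, 953 and 684 CPM (log2 -1.43 ± 0.20 (SE), adjusted p = 6.6e-04). Active zone scaffolds rose in 6 of 14 cases, led by Unc13a (2.86), and fell in 3 (Rims3 at -2.10, Bsn at -0.70 and Ppfia4 at -0.69). The shares were 42.9% and 21.4%, against 31.8% and 35.2% of all genes. Vesicle and active zone genes stood 0.60 and 0.43 above all genes, but -0.12 and -0.20 from them with the RNA of the low nuclease preparation. Camk2a, the α subunit of CaM kinase II, had 318, 362 and 346 CPM in the pellet and 288, 332 and 231 CPM in RNA, which overlap (log2 0.27 ± 0.16 (SE), adjusted p = 0.177). Cadherins rose in 11 of 33 cases and fell in 8, shares near those of all genes for rises and below them for falls. With the RNA of the low nuclease preparation 1 rose and 19 fell, and the median went from 0.20 to -1.45, against 0.81 with the low nuclease pellets.

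Axon guidance ligands and receptors rose in 10 of 69 cases and fell in 22 (14.5% and 31.9%, against 31.8% and 35.2% of all genes). Their median was -0.27 from all genes, -2.09 with the RNA of the low nuclease preparation, where 1 rose and 52 fell, and 0.52 with its pellets. Ntng2, a membrane-anchored netrin, had 3.91, 5.12 and 3.56 against 65.5, 48.5 and 56.6 CPM (log2 -3.78 ± 0.18 (SE), adjusted p = 1.0e-05), whereas the repellent Slit2 stood at 4.96, and at 1.06 without pellet replicate 2. Collagens and laminins, of which 16 of 54 had a mean RNA level below 1 CPM, rose in 21 cases and fell in 5. Col1a1, the most abundant in RNA, fell with 14.2, 12.3 and 10.6 against 17.4, 25.6 and 25.1 CPM (log2 -0.87 ± 0.19 (SE), adjusted p = 0.00562). The class stood 0.66 above all genes, and -1.55 and -0.20 from them with the RNA of the low nuclease preparation and under length scaling.

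Nuclear-encoded subunits of the respiratory chain rose in 26 of 84 cases and fell in 42 (30.95% and 50%, against 31.8% and 35.2% of all genes). Of the 42 that fell, 31 had more than 10% repeated coding words. Among the 47 with fewer repeated words, 24 rose and 11 fell, and the median turned from 0.29 below to 0.30 above that of the genes tested. With the full class kept it also turned, to 0.53 above with the RNA of the low nuclease preparation, where 28 rose and 13 fell, and to 0.03 above under length scaling. Atp5b, the β subunit of ATP synthase, had 1798, 1759 and 1828 CPM in the pellet against 768, 778 and 758 CPM in RNA (log2 1.23 ± 0.14 (SE), adjusted p = 2.4e-04), while Atp5l, with 100% repeated words, had 0.174, 1.05 and 0.102 against 58.9, 74.7 and 52.8 CPM (log2 -7.40 ± 0.51 (SE), adjusted p = 2.8e-05). Of 18 glycolytic enzymes 9 rose and 4 fell (50% and 22.2%). The hexokinase Hk1 had 812, 700 and 807 against 235, 208 and 206 CPM (log2 1.83 ± 0.14 (SE), adjusted p = 4.0e-05). The 4 that fell were Gapdh (-3.26), Pgam1 (-0.91), Eno1 (-0.48) and Pgk1 (-0.45), with 89.9% to 100% repeated words, and of the 8 glycolytic genes with at most 10% 7 rose and 0 fell. Pgam1 and Eno1 turned to 0.28 and 0.37 with the low nuclease RNA. Mitochondrial ribosomal proteins rose in 20 of 78 cases and fell in 37, from -4.85 for Mrps36 to 1.80 for Mrps22. The shares were 25.6% and 47.4%, against 31.8% and 35.2% of all genes. Their median of 0.18 below all genes turned to 0.54 above with the RNA of the low nuclease preparation and to 0.14 above under length scaling.

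Lists of mRNAs that earlier work had tied to FMRP or to halted ribosomes, taken from the study's supplement, were placed in the same comparison. Of 186 mRNAs listed by Shah et al., whose ribosomes resist run-off, 135 rose and 13 fell, and the median was 1.12 above all genes, 0.92 to 1.26 in the single pellet libraries. Of 747 FMRP targets of Darnell et al. 316 rose and 266 fell, shares of 42.3% and 35.6%, against 31.8% and 35.2% of all genes. Their median was 0.22 above all genes. Of 263 targets of Maurin et al. 116 rose and 79 fell, shares of 44.1% and 30.0%, with a median 0.28 above. Under length scaling the medians were 0.87 for Shah, 0.27 for Maurin and 0.02 for Darnell. Without genes of repeated sequence they were 1.07, 0.19 and 0.13. The lists were used as far as the copy read here held them, and they share genes. All 3 directions turned with the RNA of the low nuclease preparation, to -0.59 for Shah, -0.28 for Darnell and -0.46 for Maurin, where 47 of the 186 mRNAs of Shah et al. rose and 77 fell. With the low nuclease pellets against the standard RNA the medians were 1.26, 0.39 and 0.32 above all genes for Shah, Maurin and Darnell. The proteins of RNA granules themselves rose in 17 of 35 cases and fell in 7 (48.6% and 20%, against 31.8% and 35.2% of all genes). They ran from -3.07 for Ybx1, with 103, 118 and 112 against 739, 1419 and 639 CPM, to 3.68 for Igf2bp1. For Igf2bp1 pellet replicate 3 decided the value (2.35, 1.81 and 47.2 CPM in the pellet, log2 0.60 and adjusted p = 0.211 without it, and -0.67 with the low nuclease pellets).

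**Figure D4:**
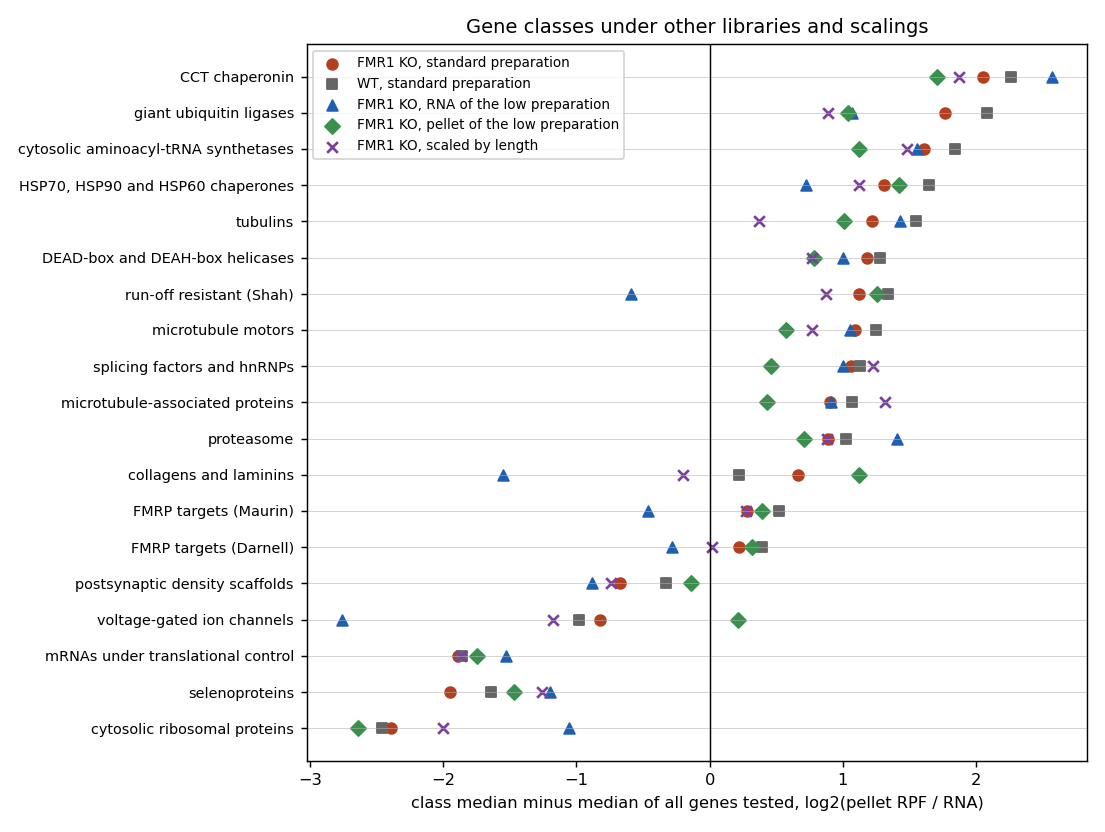
Class medians of log2 occupancy minus the median of all genes tested, for FMR1 KO in the standard preparation, for WT, for FMR1 KO with the RNA or the pellets of the low nuclease preparation, and for FMR1 KO scaled by coding and exonic length. CCT subunits, tRNA synthetases and ribosomal proteins keep their side under each, and the lists of Shah, Maurin and Darnell change side with the other RNA. The fit without genes of repeated sequence is not drawn.

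Occupancy differed with the length of the coding sequence. How the RNA libraries were selected is not given in the sources used here, and its part in this relation and in that with repeated sequence was not tested. Among 7683 genes with a mean RNA level of 10 CPM or more and at most 10% repeated words, the median log2 occupancy was -0.79 in the quintile with the shortest coding sequences (48 to 828 bases) and 0.61 in the quintile with the longest (2796 to 26397 bases), with -0.23, 0.13 and 0.40 between them. In the shortest quintile 16.7% of genes rose and 63.1% fell, and in the longest 55.6% rose and 19.4% fell. The single pellet libraries gave -0.68 to -0.88 for the shortest and 0.50 to 0.62 for the longest quintile. By share of the transcript that is coding, the medians ran from -0.79 where at most 33.2% was coding to 0.58 where at least 79.9% was. The longest quintile of 3′ untranslated regions stood at -0.39, and the other quintiles between 0.10 and 0.19. Spearman's rho across these genes, which are not independent and share libraries, was 0.36 for coding length and 0.34 for coding share. When footprints were scaled by coding length and RNA by exonic length the rho values were 0.04 and -0.02. The comparison of counts itself makes no adjustment for length. With the RNA of the low nuclease preparation the medians relative to all genes were -0.21, 0.17, 0.36, 0.42 and 0.29 over the same quintiles, against -0.72, -0.16, 0.20, 0.47 and 0.68 in the standard preparation.

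Sequence that occurs at more than 1 place of the genome went along with low occupancy. Among genes of at least 10 CPM in RNA, the median was 0.00 for 6017 genes without a repeated 30-base coding word and 0.21 for 1666 genes with up to 10%. It was -0.36 for 719 genes with 10% to 50%, -1.90 for 394 genes with 50% to 90% and -2.45 for 138 genes with over 90%. In the last set 91.3% of genes fell and 3.62% rose. Of all genes tested, 2095 had over 10% repeated words, and of these 17.3% rose and 54.5% fell. Of the 13889 with fewer, 4728 rose (34.0%) and 4466 fell (32.2%).

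**Figure D5:**
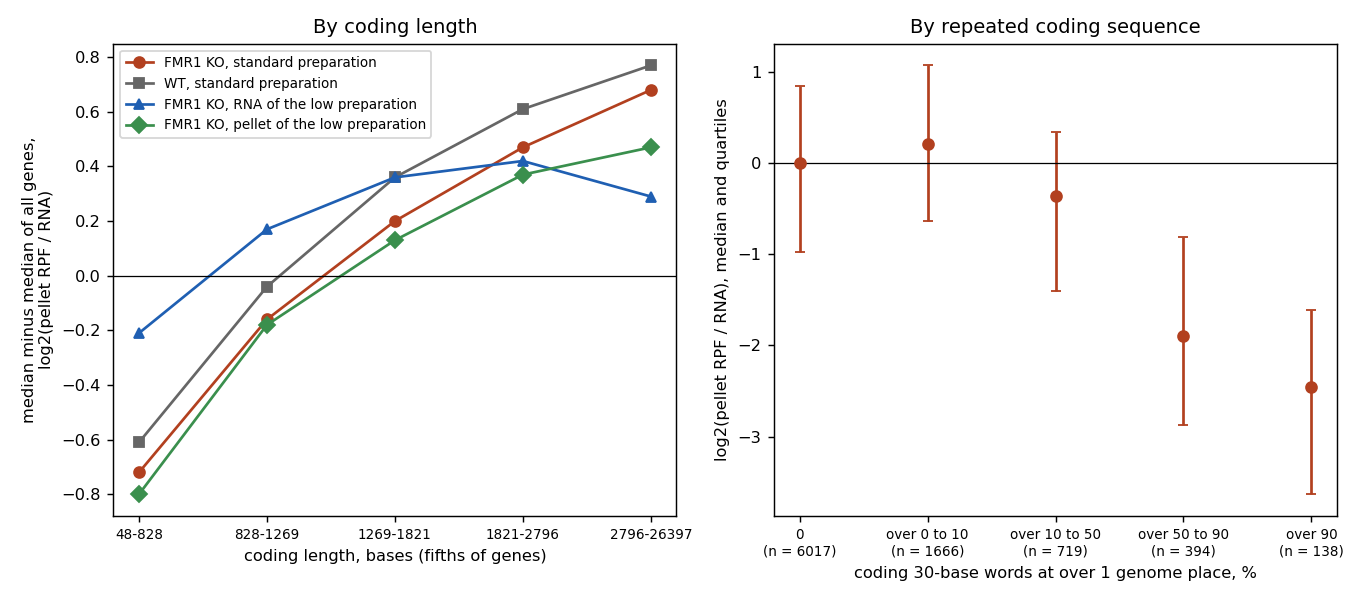
Left, median log2 occupancy minus that of all genes tested in quintiles of genes by coding length, for FMR1 KO, WT and FMR1 KO with RNA or pellets of the low nuclease preparation. Right, median and quartiles of log2 occupancy in FMR1 KO by the percent of coding 30-base words at more than 1 genome place, with medians of 0.00 without such words and -2.45 above 90%.

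By the named-gene rule, the 10 largest rises were Mroh6, Cks1brt, Hmx1, Scn4a, Sall4, BC107364, Il27, Scnn1b, Olfr124 and Lcn11, genes with nearly no RNA in this tissue. Mroh6 had 19647, 29905 and 20109 CPM in the pellet and 0.0138, 0.0289 and 0.0201 CPM in RNA (log2 20.02 ± 0.61 (SE), adjusted p = 4.7e-06). Hmx1, a homeobox gene, had 4543, 12283 and 9591 CPM in the pellet and 6 counts over the RNA libraries. In several of the 10 a single library carried the level. Cks1brt had 0.521, 13996 and 0.305 CPM, Sall4 0.521, 1.05 and 17862 CPM and Scnn1b 0.434, 11444 and 0.61 CPM in the pellet. Without the high library the log2 was 1.75 for Sall4 (adjusted p = 0.182) and 1.28 for Scnn1b. Of the 2536 genes with a mean RNA level below 1 CPM, 655 rose and 358 fell, both smaller shares than among all genes tested. Such genes can pass the filter through the pellet alone. They held 2.50%, 5.57% and 4.38% of the tested counts of the 3 pellet libraries. The 10 genes with the highest pellet levels held 18.6%, 23.0% and 13.4%. The first of them, the overlapping genes Filip1l and Cmss1, had 82004, 64259 and 47134 and 82019, 64273 and 47148 CPM, values too close to be told apart, and stood at -4.28 and -4.27 with the RNA of the low nuclease preparation.

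The 10 largest falls were Rtl8a, Fam166a, Hist1h4n, Ccnb1ip1 and the mitochondrial genes mt-Nd1, mt-Nd6, mt-Co1, mt-Nd4, mt-Cytb and mt-Nd2. Rtl8a, a gene derived from a retrotransposon, had 43.96, 43.3 and 46.0 CPM in RNA and 0 counts in the pellet, at least 415-fold lower against a floor of 3 counts over the group, with 100% repeated coding words. Fam166a had 11.6, 10.8 and 10.9 CPM in RNA and 0 pellet counts, at least 104-fold lower, and it overlaps Tubb4b, a β-tubulin gene. Ccnb1ip1 had the highest RNA level of all tested genes, 6274, 11018 and 5540 CPM, and 13.2, 46.5 and 9.25 CPM in the pellet (log2 -8.37 ± 0.86 (SE), adjusted p = 1.5e-04).

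The comparison with WT asks where the FMR1 KO values differ from those of the other genotype. In WT the class medians relative to all genes were 2.08 for giant ligases, 1.84 for tRNA synthetases, 1.25 for motors, -0.98 for channels, -1.64 for selenoproteins and -2.46 for ribosomal proteins. In FMR1 KO they were 1.77, 1.61, 1.09, -0.82, -1.95 and -2.39. The lists of Shah, Maurin and Darnell stood at 1.34, 0.52 and 0.39 in WT, against 1.12, 0.28 and 0.22 in FMR1 KO. Other classes also stood lower in FMR1 KO, among them HSP chaperones (1.65 in WT, 1.31 in FMR1 KO) and tubulins (1.55 and 1.22). Some stood higher, among them collagens and laminins (0.22 and 0.66) and glutamate and GABA receptors (-0.31 and -0.01). The difference between the genotypes was not tested for lists or classes. The interaction of genotype and library type, tested by edgeR over 16411 genes, was called for 3 genes higher in FMR1 KO (0.0183%) and 3 lower (0.0183%). Of the 16411 genes 998 had an unadjusted p under 0.05, which genes also reach without any difference, so nothing is read from that count. The genes lower in FMR1 KO were Fmr1 (log2 -1.85 ± 0.18 (SE), adjusted p = 0.00491), Pde3b (log2 -2.43 ± 0.33 (SE), adjusted p = 0.0405) and Nebl (log2 -2.89 ± 0.38 (SE), adjusted p = 0.0405). Those higher were Dcp1a (log2 4.53 ± 0.41 (SE), adjusted p = 0.00491), a decapping factor that overlaps Cacna1d, Ppil1 (log2 2.96 ± 0.30 (SE), adjusted p = 0.00491), a spliceosomal isomerase, and Pcsk1n (log2 2.39 ± 0.32 (SE), adjusted p = 0.0405), an inhibitor of prohormone convertase. Dcp1a had 213, 568 and 285 CPM in the FMR1 KO pellet against 17.6, 20.6 and 21.4 CPM in its RNA, a log2 of 4.16, against -0.33 in WT. Map1b (log2 -0.36 ± 0.30 (SE), adjusted p = 0.922), Tubb2b (log2 -0.05 ± 0.26 (SE), adjusted p = 1) and Camk2a (log2 -0.43 ± 0.22 (SE), adjusted p = 0.827) were not called. DESeq2 called 31 genes higher and 27 lower. By edgeR a replicate block left 2 higher and 1 lower, as did leaving out any 1 RNA library of either genotype. The FMR1 KO occupancy itself was 4.16 for Dcp1a, 2.33 for Ppil1 and -2.89 for Pde3b, and -0.61, -1.18 and 0.69 with the low nuclease pellets of FMR1 KO. A difference missed at this depth and spread is not shown to be absent.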

How the data were processed

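Ribosome-protected fragments of the pellet and RNA-seq of whole brain were measured in FMR1 KO mice. Per the labels and the methods, the authors trimmed footprint reads with cutadapt 2.10, discarded reads of rRNA and ncRNA by Bowtie2 2.3.5, aligned with STAR 2.7.8a to GRCm38 and deposited raw counts per gene from featureCounts 2.2.0. Strand and the treatment of reads with several places are not given in the sources used here. The authors also deposited peaks of footprint coverage per library, whose heights are signal not scaled between libraries.

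Cdk8, 6 chromosome Y genes and 46 genes without a protein-coding entry in GENCODE M21 were dropped. The other 16561 genes were filtered (filterByExpr), normalized by TMM and tested with edgeR 4.0.16 in R 4.3.3 by the quasi-likelihood test with adjustment over 16179 genes at 0.05. CPM use effective library sizes, and a prior count of 2 enters log2 levels of single libraries (class medians by pellet library and correlations). Members and gene lists were chosen with earlier results of these data known. Genes named by rule were the 10 largest rises and falls among genes called, without overlap and with at least 10 CPM, the highest, lowest and most RNA-abundant of each list, and Fmr1, Tubb2b, Map1b and Camk2a. Alternatives were library size alone, DESeq2 1.42.0, no filter, kept genes, a replicate block, left-out libraries, the low nuclease libraries, length scaling and WT in the same fit. Leaving out genes with over 10% repeated 30-base coding words was chosen after seeing the data. The scripts were tested on simulated data.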

Additional observations from a re-analysis of the deposited data

Results flagged for a closer look

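The FMR1 KO and WT occupancies of 6 genes differed by the interaction test of edgeR. FMR1 KO minus WT was -2.89 for Nebl, -2.43 for Pde3b, -1.85 for Fmr1, 2.39 for Pcsk1n, 2.96 for Ppil1 and 4.53 for Dcp1a, on the log2 scale. Dcp1a overlaps Cacna1d, so reads of the 2 genes may not be told apart.

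Chromosome Y genes, left out of the comparison, held 3130 counts over the 3 FMR1 KO pellet libraries, at 789 to 1241 in a library, against 14 to 26 in an RNA library. With these genes and Cdk8 kept in the fit, 5143 genes were higher and 5672 lower in the pellet, and 8 were higher and 3 lower in FMR1 KO than in WT.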

How the results depend on the processing

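The counts of 5141 higher and 5692 lower genes became 1284 and 10035 under library size alone, and 3033 and 3922 with the low nuclease RNA, where fewer genes were tested. Leaving out libraries gave 3964 to 5122 higher and 4334 to 5961 lower. A replicate block gave 4691 and 5321. Same-numbered pellet and RNA libraries correlated at 0.015, 0.061 and -0.009 in their deviations, so the numbers were not taken as pairs. For the interaction, genes higher in FMR1 KO numbered 8 with Cdk8 and chromosome Y kept, 31 by DESeq2, 6 by library size alone, 1 with the low nuclease RNA, 0 with the low nuclease pellets (edgeR) and 2 to 16 with libraries left out. Genes lower numbered 27 by DESeq2, 0 with the low nuclease RNA, 1 with the replicate block and 1 to 9 with libraries left out.

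Class medians minus that of all genes tested were, with the low nuclease RNA, 2.57 for CCT, 1.07 for giant ligases, 1.00 for helicases, -1.06 for ribosomal proteins, -1.20 for selenoproteins, -2.76 for channels and -10.72 for mitochondrially encoded genes. The direction turned there for mitochondrial ribosomal proteins (0.54), the respiratory chain (0.53), vesicle genes (-0.12), active zone (-0.20), collagens (-1.55), spectrins (-1.05), cadherins (-1.45), actins (1.03), histones (0.61) and the lists of Shah (-0.59), Maurin (-0.46) and Darnell (-0.28). With the low nuclease pellets the values were 1.71 for CCT, 1.12 for tRNA synthetases, 1.04 for giant ligases, 0.78 for helicases, 0.57 for motors, -1.47 for selenoproteins and -2.64 for ribosomal proteins, and turned for channels (0.21), axon guidance (0.52), receptors (0.88), transcription factors (-0.15) and elongation factors (-0.06). Under length scaling they were 1.48 for tRNA synthetases, 0.89 for giant ligases, 0.77 for helicases and for motors, 0.02 for Darnell, -1.18 for channels, -1.26 for selenoproteins, -2.0 for ribosomal proteins and -10.31 for mitochondrially encoded genes, and turned for mitochondrial ribosomal proteins (0.14), the respiratory chain (0.03), actins (0.81), spectrins (-0.56) and collagens (-0.20). Without genes of repeated sequence channels stood at -0.97, selenoproteins at -1.72, and the respiratory chain (0.30), actins (0.51) and transcription factors (-0.02) turned. With libraries left out helicases ran from 1.11 to 1.29, channels from -1.05 to -0.79 and selenoproteins from -2.06 to -1.66.

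Single genes that turned under library size alone were Actb (-0.39), Ank2 (-0.38), Arc (-0.24), Dlg1 (-0.68), Dlgap2 (-0.63), Fos (-0.32), Gria2 (-0.32), Hnrnpa0 (-0.63), Hnrnpk (-0.67), Qars (-0.47), Selenoo (-0.50), Sptbn1 (-0.34) and Tubb2b (-0.35). With the low nuclease RNA they were Ank2 (-0.94), Cacna1b (-1.58), Calr (-2.17), Cmss1 (-4.27), Filip1l (-4.28), Dio3 (-0.40), Dlgap2 (-1.01), Eno1 (0.37), Gria2 (-2.05), Grin1 (-2.32), Kif5c (-0.14), Pgam1 (0.28), Psmb5 (0.08) and Sptbn1 (-0.42). With the low nuclease pellets they were Dcp1a (-0.61), Grin2b (0.52), Igf2bp1 (-0.67), Npas4 (0.05), Pde3b (0.69), Ppil1 (-1.18), Rpl22 (-1.88), Sptbn1 (-0.19) and Syt1 (0.90), and under length scaling Dlgap2 (-0.18), Mbp (0.45), Rps3 (0.43), Selenoo (-0.13), Srsf3 (0.08), Syt1 (0.76) and Tubb2b (-0.11). The cause was not tested. Depth limits genes with few RNA or pellet counts.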
